A study of Mus musculus with 10 samples.

Results

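The clustered protocadherin genes of the mouse lie on chromosome 18 in 3 neighbouring clusters, alpha, beta and gamma. Their H3K27ac, a histone acetylation found at active promoters and enhancers, was examined here in the cerebral cortex of Dnmt3a heterozygous mice. The regions were chosen by position: every region of the deposited table that overlapped chr18:37080000-38010000 of the build mm9, a window of 930 kb set to hold the 3 clusters. This gave 16 of 50898 regions, of which 9 carried the authors' class prom (read here as promoter), 4 the class enh (enhancer) and 3 the class uaProm, a name the labels leave unexplained. ChIP-seq libraries came from the cortex of 10 C57BL/6J mice aged 8 weeks, 5 heterozygous for a Dnmt3a knockout (Het) and 5 wild type (WT). The labels speak of littermates in 5 pairs. Replicates 1 to 4 are litters 650, 651, 119 and 141 by the number that both titles of a pair share. The titles of replicate 5 carry different numbers, 726 for WT and 728 for Het, and were taken as the remaining pair because both columns of the deposited table carry both numbers. Replicates 1, 3 and 5 were male (6 animals), and replicates 2 and 4 were female (4 animals). The knockout is labelled only as heterozygous, without the design of its allele. The free description of Het replicate 5 holds the term cKO, although its genotype label is the same as that of the other Het animals. Each value is a pseudo-count, a read count that the authors adjusted to a library size common to all animals.

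Clustered protocadherins are cell adhesion proteins of the neuronal surface. In the alpha and gamma clusters each variable exon has its own promoter and is spliced to constant exons shared by the cluster, while each beta gene is a single exon. Single neurons use different combinations of these promoters, which gives their processes a molecular identity and lets branches of the same cell avoid each other. The C-type genes at the ends of the alpha and gamma clusters (Pcdhac1, Pcdhac2, Pcdhgc3, Pcdhgc4 and Pcdhgc5) are chosen less by chance and are active more broadly. Promoter choice in the clusters is known to involve DNA methylation, the architectural protein CTCF and cohesin. Dnmt3a is a de novo DNA methyltransferase that writes much of the methylation of postnatal neurons.

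The RefSeq gene table of GRCm38 lists 14 alpha, 22 beta and 22 gamma genes, 58 in all, with Pcdhgb8 as the 1 pseudogene among them. It lists 2 other protein-coding genes, Slc25a2 and Taf7, between the beta and gamma clusters, and none between alpha and beta. Diaph1 is the next protein-coding gene after the gamma cluster. The window could not be checked against an annotation of mm9, and no region was assigned to a single gene. A region in the window may therefore belong to Slc25a2, Taf7 or the edge of Diaph1, and H3K27ac at Dnmt3a and at cell type markers of the cortex was not analysed here. The cortex is a mixture of cell types, so fewer cells that carry the mark and less of the mark in each cell cannot be told apart.

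Recovered read totals over all regions spanned 2771534 (WT replicate 5) to 8453140 (Het replicate 2), and those over the 16 regions spanned 1485 to 4396 in the same animals. WT replicate 5 was thus the shallowest library, and its pseudo-counts carry the largest counting error. The strongest 5% of all regions held 28.2% of the signal in Het replicate 1, the lowest, and 33.6% in WT replicate 4, the highest.

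H3K27ac in the window lay in 2 groups of regions with a long empty stretch between them. The first 6 regions ran from prom.6894 (chr18:37249237-37250670) to uaProm.836 (chr18:37376131-37378387), a span of 129 kb. The last 10 ran from prom.6897 (chr18:37802986-37804794) to prom.6902 (chr18:37973529-38014699), a span of 212 kb. Between them lay 425 kb without any region. Of 50877 gaps between neighbouring regions in the table, 801 were longer, and the median gap was 11.6 kb. Region numbers rose with position within every class and chromosome, and no number was skipped across this gap in any class, so no region that the authors numbered is absent from the stretch. From the first to the last enhancer region of the window, 1 number was skipped. It was enh.20806, which belongs between enh.20805 (chr18:37311810-37315403) and enh.20807 (chr18:37330065-37332898). Enhancer numbers were also skipped between enh.20809, the window's last, and the next enhancer region, which lies past the window's end. Whether these numbers belong inside the window cannot be told. The first region of the window also stood 287 kb after the last one before it. The window held 17.2 regions per Mb, against 19.9 per Mb over the spans of the autosomes and chromosome X, and regions covered 8.55% of its length, against 8.13% over those spans. The number of acetylated regions per Mb was thus near that of the genome, while their placing was uneven. The likeness in coverage rested largely on prom.6902, which is 41170 bp wide. The 79.6 kb covered in the window hold only the part of it that lies before the window's end. The clusters follow each other as alpha, beta and gamma, so the first group lies toward the alpha end and the last group toward the gamma end. Which genes fill the empty stretch was not determined here.

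**Figure D1:**
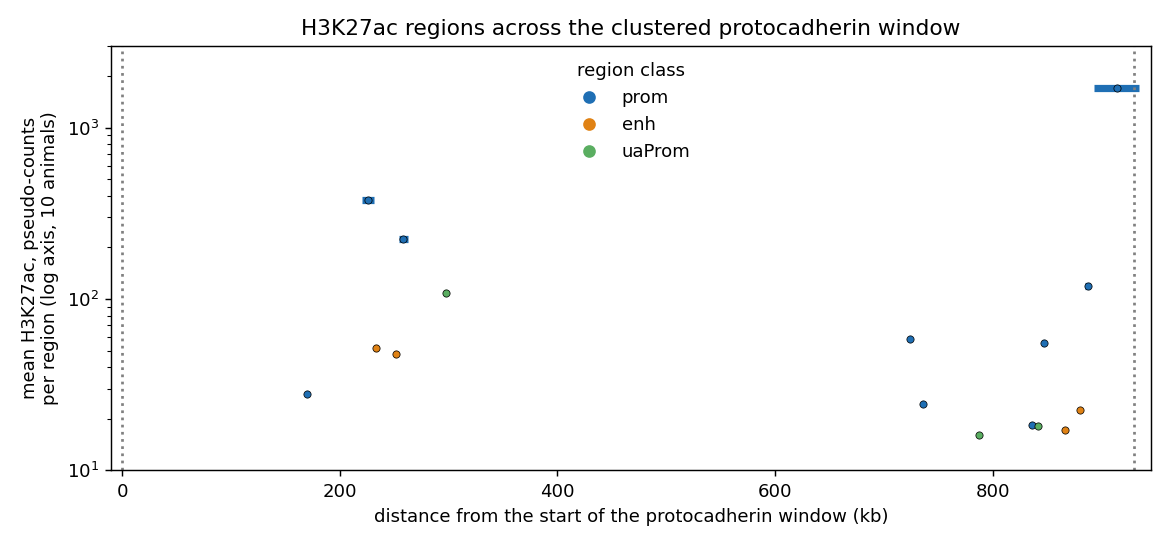
Position and strength of the 16 regions: the horizontal axis is the distance from the start of the window in kb, the vertical axis the mean pseudo-count over 10 animals on a log scale. Each region is a point at its centre, coloured by class, over a bar of its true width that the point hides where the region is narrow, and dotted lines mark the ends of the window. Regions stand in 2 groups with 425 kb between them, and prom.6902 at the gamma end is the strongest and widest.

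The gamma end of the window was dominated by a single broad domain. The promoter region prom.6902 was 41170 bp wide and had a mean of 1698 pseudo-counts. It ranked 134 by width and 100 by signal among the 50898 regions, and it was wider than 99.4% of promoter regions. Per length its mean level was 41.2 pseudo-counts per kb, which 69.8% of promoter regions did not reach, so its rank by signal came with its width. Its share of the window's signal was 59.5 ± 2.06% in the 5 WT animals and 58.0 ± 2.04% in the 5 Het animals (mean ± SD). It is also the 1 region that crosses the window's end, and the share of it that belongs to the gamma genes or to a neighbour cannot be told apart.

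The next strongest promoter regions lay in the first group. The region prom.6895 (chr18:37300772-37310943, 10171 bp wide) had a mean of 381 pseudo-counts, above 90.1% of promoter regions, at 37.4 per kb. The region prom.6896 (chr18:37334257-37342194) had a mean of 223 pseudo-counts, above 77.3% of promoter regions, at 28.1 per kb. On the gamma side, prom.6901 (chr18:37965060-37969175), which ends 4.35 kb before the broad domain, had a mean of 119 pseudo-counts at 29.0 per kb. The region prom.6900 (chr18:37925426-37928201) had a mean of 55.4 at 19.96 per kb.

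The remaining promoter regions were narrow for their class and weak in total signal. The region prom.6897 had a mean of 58.5 pseudo-counts, prom.6894 of 27.9, prom.6898 (chr18:37814875-37816103) of 24.5 and prom.6899 (chr18:37915358-37916299) of 18.5. The last exceeded 2.75% of promoter regions by total signal. Per kb, prom.6897 exceeded 52.3% of promoter regions, prom.6894 20.4%, prom.6898 21.8% and prom.6899 20.8%.

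The 4 enhancer regions were of low to middling strength. The means were 51.6 pseudo-counts at enh.20805 and 47.5 at enh.20807 in the first group, and 22.6 at enh.20809 (chr18:37960048-37961266) and 17.2 at enh.20808 (chr18:37945555-37946587) in the last. Those of the first group exceeded 59.7% and 55.9% of enhancer regions, and those of the last group 18.8% and 7.08%. These ranks came with width, and per length the order was another. The levels were 14.4 per kb at enh.20805, 16.8 at enh.20807, 18.5 at enh.20809 and 16.6 at enh.20808. They exceeded 13.9%, 38.8%, 57.7% and 37.3% of enhancer regions.

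The uaProm regions differed widely. The region uaProm.836 at the edge of the empty stretch had a mean of 108 pseudo-counts, and its 48.0 per kb was the highest mean level per length in the window. The regions uaProm.838 (chr18:37921302-37922178) and uaProm.837 (chr18:37866594-37867463) had means of 18.03 and 15.998, above 2.62% and 1.25% of their class. Both were narrow for their class, and per kb they exceeded 22.2% and 12.4% of it.

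The comparison of Het with WT littermates asks whether cortical H3K27ac at these genes differs when 1 copy of Dnmt3a is lost. No region of the window passed the test, limma on log2(pseudo-count + 1) with genotype and sex as terms and a Benjamini-Hochberg threshold of 0.05 over all 50898 regions. Over all regions 1, or 0.00196%, passed. At an unadjusted p under 0.05 there was 1 of the 16, prom.6900, against 2.10% of all regions. In none of the 16 were the 5 Het values all above or all below the 5 WT values, against 0.375% of all regions. The median log2 difference over the 16 regions was 0.0015, with 9 above 0, and over all regions it was 0.0092, with 53.0% above 0. Summed over the window, WT animals had 2932 ± 161 pseudo-counts and Het animals 2841 ± 179, or 0.0524 ± 0.00262% and 0.0508 ± 0.00272% of all signal (mean ± SD of 5 animals). The sums overlapped, from 2763 to 3175 in WT and from 2582 to 3018 in Het, and Het was higher in 2 of 5 pairs. These sums are mostly the broad domain prom.6902. The last group of regions without it went the other way, with 368, 332, 320.3, 299 and 360.2 pseudo-counts in WT replicates 1 to 5 and 413, 361, 347, 326 and 374 in Het replicates 1 to 5. Het was higher there in 5 of 5 pairs while the groups overlapped, with 336 ± 28.5 in WT against 364 ± 32.4 among Het animals (mean ± SD). This sum was singled out after its values were seen and has no test. Its largest rises in mean were at prom.6900 (46.7 in WT, 64.1 in Het) and prom.6901 (112 in WT, 127 in Het). Over the 10 regions of the last group, prom.6902 included, the median log2 difference was -0.018, with 5 above 0. Without prom.6902, itself below 0, the same 5 remained above 0, while prom.6897, prom.6899, uaProm.838 and enh.20808 were below 0. The sum thus does not stand for a rise at each of its regions.

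The promoter region prom.6900, in the last group, had the smallest p of the window. Its H3K27ac was 62.2, 48.5, 38.8, 42.1 and 41.9 pseudo-counts in WT replicates 1 to 5 and 56.0, 68.7, 64.4, 71.7 and 59.5 in Het replicates 1 to 5. The Het animal had the higher value in 4 of 5 litters, and litter 650 went the other way with the highest WT and the lowest Het value, so the groups overlapped. The WT mean was 46.7 ± 9.36 and the Het mean 64.1 ± 6.46 (SD of 5 animals). The log2 difference was 0.46 (SE 0.15), or 1.38-fold, with a limma unadjusted p of 0.00413 and an adjusted p of 1.00, so this region did not pass. In the authors' deposited table its log2 fold change is 0.44, with a p of 0.00371 and an FDR of 1. In the authors' deposited table no member has an FDR under 0.05, against 0.00393% of all regions, and 1 member has a p under 0.05, against 1.76%. A fit that blocked on litters instead of sex gave it a limma unadjusted p of 0.00107 and an adjusted p of 0.921. In that blocked fit 0 of 16 regions passed, against 0.00589% of all, and 1 of 16 had an unadjusted p under 0.05, against 4.63%. By limma-voom on recovered reads 1 of 16 had an unadjusted p under 0.05 too, against 2.21%. Of its nearest neighbours, uaProm.838, 3.25 kb before it, had a log2 difference of -0.049 (SE 0.23), and enh.20808, 17.4 kb after it, of -0.18 (SE 0.26).

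The broad domain prom.6902 had 1612, 1620.3, 1723, 1896 and 1877 pseudo-counts in WT replicates 1 to 5 and 1412, 1756, 1758, 1722 and 1604 in Het replicates 1 to 5. Het was higher in 2 of 5 litters, and the groups overlapped. The WT mean was 1746 ± 136 and the Het mean 1650.3 ± 147 (SD of 5 animals). The log2 difference of -0.082 (SE 0.085) did not pass, with a limma unadjusted p of 0.3405 and an adjusted p of 1.00. Its 95% interval ran from 0.838-fold to 1.06-fold. The lowest value belonged to Het replicate 1, which also had the lowest share of signal in strong regions, and the highest to WT replicate 4, which had the highest share. The part of this share in the difference was not tested.

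At prom.6895 the values were 356, 398, 376, 468 and 361 in WT replicates 1 to 5 and 308, 380.3, 395, 425 and 339 in Het replicates 1 to 5. Het was lower in 4 of 5 litters by a small amount, with a log2 difference of -0.086 (SE 0.094). At prom.6896 the values were 204, 244, 207, 263 and 212 in WT and 222, 199, 265, 211 and 201 in Het. The Het range of 199 to 265 enclosed the WT range of 204 to 263. At prom.6897 the values were 65.4, 57.7, 60.1, 54.9 and 65.7 in WT and 62.9, 57.8, 55.1, 45.7 and 59.7 in Het. The Het value was lower in 4 of 5 litters there too, and the groups overlapped.

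The region prom.6901 was the 1 member that was higher in Het in all 5 litters, which 3.53% of all regions were. None of the 16 was lower in Het in all 5 litters, against 2.46%. Its values were 111, 117, 109.6, 98.7 and 125 in WT replicates 1 to 5 and 147, 118, 125, 99.0 and 144 in Het replicates 1 to 5. The difference was smallest in litters 651 and 141, and the groups overlapped. The log2 difference was 0.16 (SE 0.11), with a limma unadjusted p of 0.152 and an adjusted p of 1.00, so it did not pass.

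The weaker promoter regions were more scattered. At prom.6898 the values were 27.8, 22.9, 26.8, 14.6 and 27.2 in WT replicates 1 to 5 and 33.5, 19.1, 21.8, 24.4 and 26.8 in Het replicates 1 to 5. At prom.6899 they were 18.8, 23.2, 17.2, 23.5 and 10.7 in WT and 28.6, 14.8, 13.9, 19.9 and 14.1 in Het. At prom.6894 they were 19.9, 27.3, 23.7, 24.7 and 38.4 in WT and 27.5, 30.6, 14.8, 36.3 and 35.9 in Het. In each of these the ranges of the genotypes overlapped over most of their length, and log2 differences ran from -0.039 to 0.082.

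**Figure D2:**
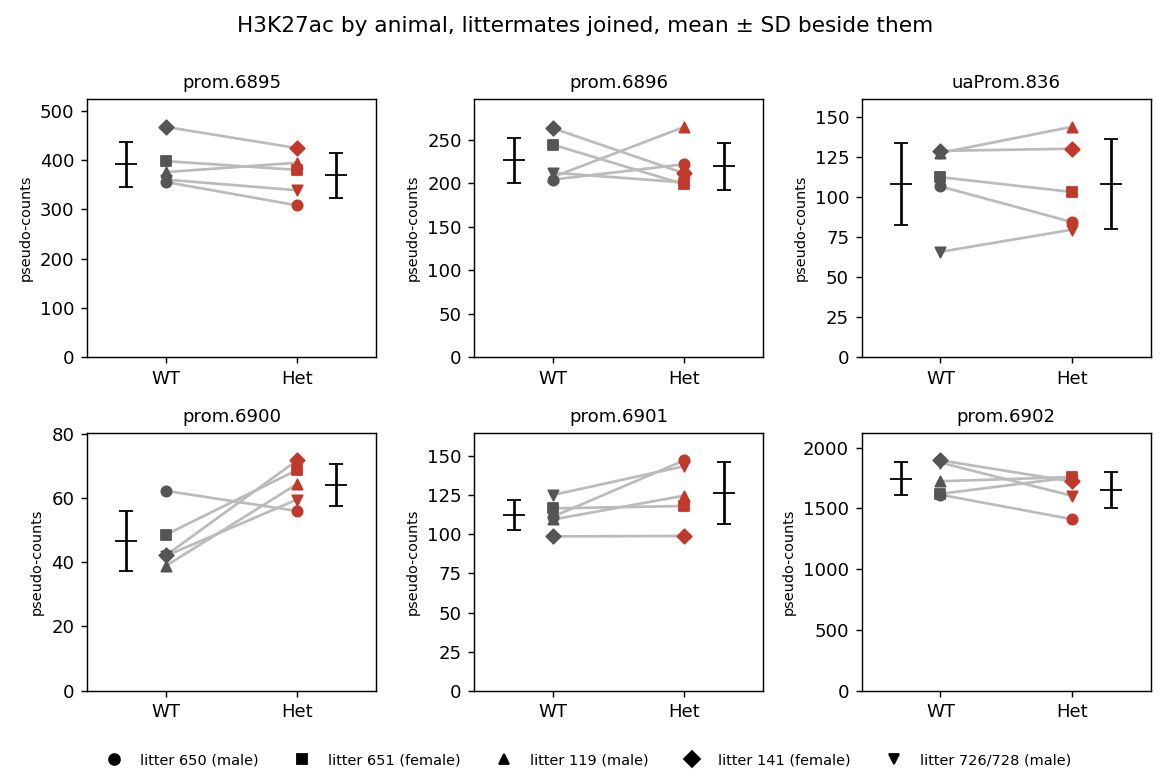
H3K27ac in pseudo-counts (vertical axis from 0) in WT and Het animals at 6 regions. Lines join littermates, symbols mark litters, and bars give the mean ± SD of 5 animals. At prom.6900 the line rises in 4 of 5 litters, while at uaProm.836 the litters keep the same order in both genotypes except for litters 119 and 141.

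Enhancer regions gave no consistent direction. At enh.20805 the values were 50.2, 62.6, 36.8, 51.2 and 50.7 in WT replicates 1 to 5 and 62.9, 44.3, 49.9, 55.3 and 52.5 in Het replicates 1 to 5. At enh.20807 they were 46.2, 50.3, 53.6, 44.6 and 42.0 in WT and 52.1, 39.7, 44.5, 50.8 and 50.9 in Het. The genotypes overlapped in both, and both lay in the first group beside the strongest promoters there. At enh.20808 the values were 17.2, 19.7, 18.2, 15.0 and 19.7 in WT and 17.7, 24.3, 12.6, 10.2 and 16.9 in Het. At enh.20809 they were 24.7, 16.8, 15.2, 17.3 and 32.3 in WT and 24.6, 26.9, 22.9, 21.1 and 24.0 in Het. The spread was wider in Het at enh.20808 (SD 5.43 against 1.97) and wider in WT at enh.20809 (SD 7.18 against 2.11), differences of spread that were not tested. The log2 differences of the 4 enhancer regions ran from -0.18 to 0.21, and none passed.

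Among the uaProm regions, uaProm.836 had 107, 112, 128, 129 and 65.8 pseudo-counts in WT replicates 1 to 5 and 84.4, 103, 144, 130.1 and 79.6 in Het replicates 1 to 5. Both means were 108, and the log2 difference was 0.00035 (SE 0.16). At uaProm.837 the values were 18.3, 11.7, 16.1, 13.4 and 20.6 in WT and 21.7, 16.6, 14.9, 14.5 and 12.3 in Het. At uaProm.838 they were 22.3, 15.1, 18.3, 19.3 and 16.8 in WT and 20.6, 14.8, 16.3, 19.8 and 16.9 in Het. No difference between genotypes exceeded the spread between animals in these 3 regions.

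The 95% interval of the fold change lay within 1.5-fold either way at 13 of 16 regions, against 79.6% of all regions. The exceptions were prom.6900 (1.11-fold to 1.70-fold) and the weak enhancer regions enh.20808 (0.618-fold to 1.27-fold) and enh.20809 (0.846-fold to 1.59-fold). The 3 regions before the window and the 3 after it did not pass either, with log2 differences from -0.16 to 0.15.

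**Figure D3:**
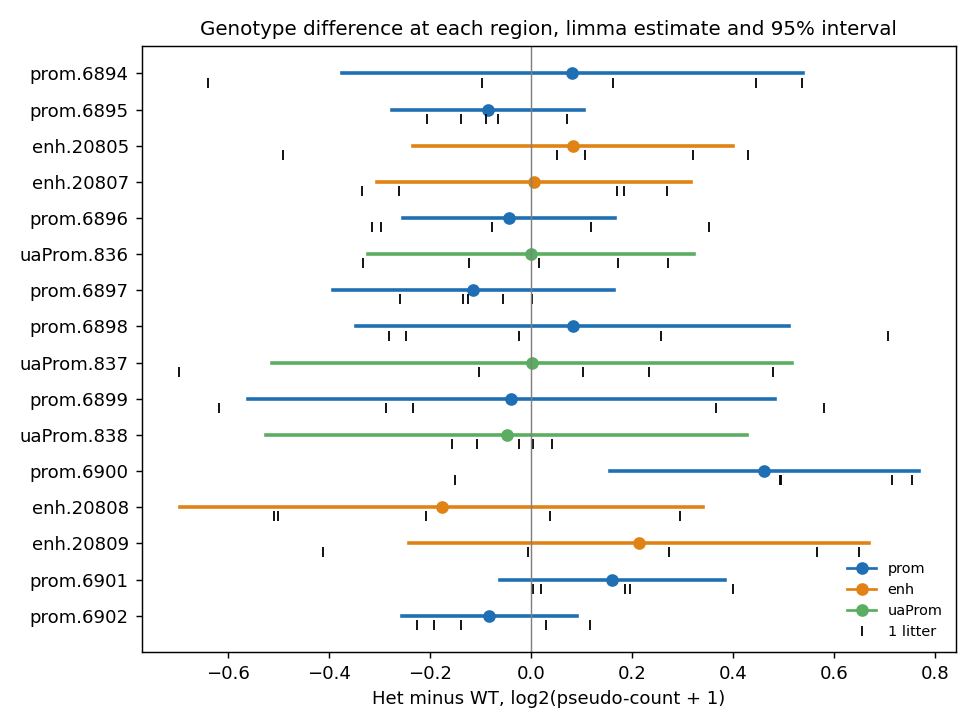
Het minus WT on the log2(pseudo-count + 1) scale (horizontal axis) for the 16 regions in order of position. Points and bars are the limma estimate and its 95% interval, coloured by class, and short strokes are the 5 litters. The interval of prom.6900 alone leaves out 0, before adjustment for 50898 regions.

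Values also differed between litters at part of the regions. A limma F test of the litter terms, in a fit with litter and genotype, was added after the data were seen. It called 2 of the 16 regions, uaProm.836 and prom.6895, against 14.3% of all regions, so the window held no larger a share than the table. At an unadjusted p under 0.05 there were 3 of 16, with prom.6894 as the third, against 29.3%. At uaProm.836 the litter means were 95.5, 108, 136, 129 and 72.7 pseudo-counts in replicates 1 to 5. The litter of replicate 5 was lowest in both genotypes. Litter 141 was highest among WT and litter 119 among Het animals. The adjusted p of the F test was 7.1e-05, and 0.955% of all regions had a larger F. Within genotypes, the SD on the log2 scale was 0.38 at this region, larger than in 98.7% of regions of like strength. Its call held with each scaling run, with loess and without any 1 library, where the adjusted p reached 0.0141 without WT replicate 5. It ended when both animals of replicate 5, the pair with different title numbers, were left out (adjusted p 0.0740). No region of the window passed among the other 4 litters, while 2214 regions of the table did. At prom.6895 the litter means were 332, 389, 385, 446 and 349.8, with an adjusted p of 0.0412. That call ended with loess (adjusted p 0.248) without both animals of replicate 5 (0.0930) and without any 1 of 8 libraries (adjusted p 0.0562 to 0.299). It held without WT replicate 3 (0.00878) and without Het replicate 3 (0.0133). The broad domain did not pass this test (adjusted p 0.256), with litter means from 1512 in litter 650 to 1809 in litter 141.

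The spread within genotypes was mixed across the window. Beside regions of like strength, the SD on the log2 scale was below the median at 9 of 16 members and above it at 7, with 3 in the lowest 10% and 1, uaProm.836, in the highest. The lowest were uaProm.838 (SD 0.19, above 2.48% of such regions), enh.20807 (0.15, above 4.75%) and prom.6897 (0.14, above 7.62%). After uaProm.836 the highest were prom.6894 (0.42, above 85.3%) and prom.6899 (0.43, above 68.8%).

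**Figure D4:**
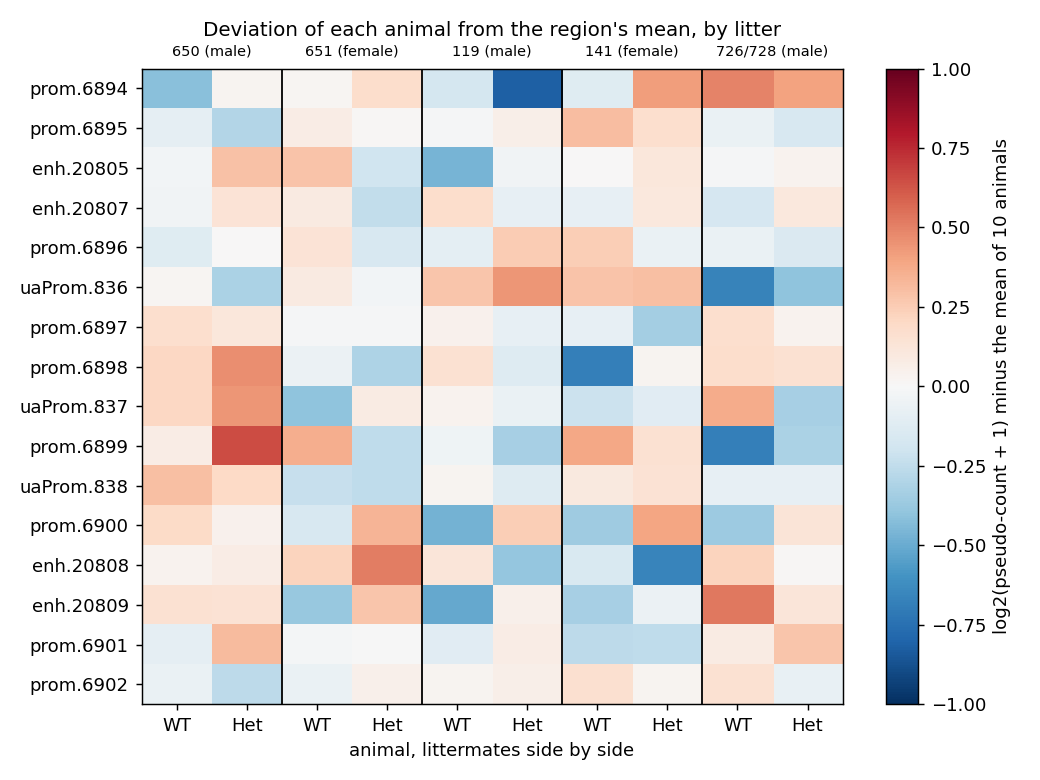
Deviation of each animal from the mean of 10 animals on the log2(pseudo-count + 1) scale (colour) for the 16 regions (rows, in order of position) and the animals by litter (columns). At uaProm.836 both animals of the litter of replicate 5 are low and both of litters 119 and 141 are high, while at prom.6900 4 of 5 WT animals are low.

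Males and females were compared in the same fit. Sex differs between litters, so each sex is also a set of litters, and sex and litter cannot be told apart. The fit counts littermates as independent, though there were only 3 male and 2 female litters. Its SE and p for sex may therefore be too small. No region of the window passed, against 0.904% of all regions, and 1 of 16 had an unadjusted p under 0.05, against 13.2%. That region was prom.6895, where the 6 males had 356 ± 29.9 pseudo-counts and the 4 females 418 ± 38.0 (mean ± SD). The male values ran from 308 to 395 with a median of 358, and the female values from 380.3 to 468. The log2 difference, male minus female, was -0.23 (SE 0.096), with a limma unadjusted p of 0.0208 and an adjusted p of 0.263. At uaProm.836 males ran from 65.8 to 144 with a median of 95.5 and females from 103 to 130.1, and at prom.6899 males from 10.7 to 28.6 with a median of 15.7 and females from 14.8 to 23.5. The females lay within the range of the males at both regions.

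Regions with higher values in males were all in the last group among the 3 with the smallest p. At prom.6901 males ran from 109.6 to 147 with a median of 125, and females from 98.7 to 118, a log2 difference of 0.23 (SE 0.11). At prom.6898 males ran from 21.8 to 33.5 with a median of 27, and females from 14.6 to 24.4, a difference of 0.43 (SE 0.22). At prom.6897 males ran from 55.1 to 65.7 with a median of 61.5, and females from 45.7 to 57.8, a difference of 0.19 (SE 0.14). The sexes overlapped at all 16 regions, and over all regions 3.15% did not overlap. The limma adjusted p of these 3 regions ran from 0.383 to 0.616.

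The interaction asks whether the genotype difference differs between the sexes. No region of the window or of the whole table (0%) passed the limma interaction test at an adjusted p under 0.05, and 1 of 16 had an unadjusted p under 0.05, against 1.36% of all regions. That region was prom.6896, where Het minus WT averaged 0.13 on the log2 scale in the 3 male litters and -0.31 in the 2 female litters. The interaction was 0.44 (SE 0.21), with a limma unadjusted p of 0.0411 and an adjusted p of 1.00. With the litter block the limma unadjusted p was 0.0119 and the adjusted p 0.999, and 3.59% of all regions then had an unadjusted p under 0.05. The male average rested largely on litter 119, with a difference of 0.35, against 0.12 in litter 650 and -0.078 in the litter of replicate 5.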

How the data were processed

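H3K27ac ChIP-seq of the cortex was analysed from the authors' table of regions. The submitters' processing notes name Bowtie2, edgeR and the build mm9 for the authors' work; tool versions, the peak caller and the meaning of each class are not given in the sources used. The deposited values are, per the file headers, pseudo-counts: a signal for each region, equalized for library size. The authors also deposited a log2 fold change with its p-value and FDR for each region. Equalizing hides any uniform change of acetylation. Reads were rebuilt by undoing the adjustment, with a dispersion of 0.01508 shared by all regions; 99.997% of values came within 0.1 read of a whole number. They gave the depth and a limma-voom alternative.

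Limma 3.58.1 (trend, robust) in R 4.3.3 was fitted to log2(value + 1) of all 10 samples and all 50898 regions, with genotype and sex as terms, no filter, and a Benjamini-Hochberg threshold of 0.05. The added pseudocount of 1 makes fold changes of weak regions too small. The labels name littermates, and the file's column names carry the litter (both title numbers for replicate 5), so replicate numbers pair the animals; deviations from the group means correlated at 0.232, 0.123, 0.0796, 0.365 and 0.419 within replicates 1 to 5. Values in every animal were to be given for the 3 strongest regions of each class, the 5 smallest genotype p-values in each direction, the 3 smallest sex p-values in each direction and the smallest interaction p. This named 15 of the 16 regions, and prom.6894 was added. Members and lists were chosen with earlier results of these data known. The gene lists and cell type markers that had been planned needed an annotation of mm9 and were not used here. The fit and the recovery were tested on simulated data.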

Additional observations from a re-analysis of the deposited data

Results flagged for a closer look

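Among 92 groups of values (each region and summed share by genotype and by sex), 1 held an animal far from the others, where chance at 1 in 20 gives 4.6. At prom.6896 Het replicate 3 had 265 pseudo-counts, against 201 to 222 in the other 5 males. Its male littermate, WT replicate 3, had 207.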

How the results depend on the processing

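With the litter as a replicate block no member passed, as in the fit without it, and the block changed no other call. Under each of the 19 alternative fits (2 scalings, loess, 2 pseudocounts, a filter at a mean of 20 that kept 12 of 16 regions, limma-voom, no sex term, the block and 10 fits without 1 library) and at a threshold of 0.10, 0 of 16 regions passed between genotypes, while prom.6900 had an unadjusted p under 0.05 in each. No member passed by sex or by interaction in the settings run. At prom.6900 the log2 difference stayed between 0.41 and 0.59, with unadjusted p from 0.000546 (without WT replicate 1) to 0.0164 (without WT replicate 4) and adjusted p from 0.892 up. The median over the window ran from -0.045 to 0.066 without single libraries, the highest without Het replicate 2. The count of window regions that differed among litters was 1 with loess. It was 1 to 3 without single libraries, with 3 only without WT replicate 3. It was 0 without both animals of replicate 5, a fit with 1 litter fewer. Over all regions the count moved too, from 7255 in the main fit to 5467 with loess and 2214 without both animals of replicate 5. Without single libraries it ran from 3346 (without Het replicate 5) to 10853 (without WT replicate 3). The window's highest and lowest counts fell in the fits with the table's highest and lowest. They are therefore not read as particular to the window. Of 300 pairs of a member and an alternative, 39 changed sign, all at 9 regions with small differences. Signs turned at enh.20807 with median-of-ratios factors (-0.016), TMM factors (-0.0099), loess (-0.021) and limma-voom (-0.013), at uaProm.836 with median-of-ratios factors (-0.021), TMM factors (-0.015) and limma-voom (-0.065), and at uaProm.837 with median-of-ratios factors (-0.018), TMM factors (-0.012) and loess (-0.059). Without single libraries the difference ran from -0.038 to 0.29 at prom.6894, -0.023 to 0.17 at enh.20805, -0.046 to 0.072 at enh.20807, -0.13 to 0.013 at prom.6896, -0.15 to 0.10 at uaProm.836, -0.036 to 0.18 at prom.6898, -0.087 to 0.12 at uaProm.837, -0.25 to 0.083 at prom.6899 and -0.12 to 0.017 at uaProm.838. The cause of these changes was not tested. The SE was largest at the weak regions: at a mean under 20 pseudo-counts it was 0.23 or more on the log2 scale. The part of depth in this was not tested.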
